A study of Bos taurus with 8 samples.

Results

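The mural cells of bovine muscle were followed from the tissue into the first days of culture. Mural cells, the pericytes and smooth muscle cells that wrap small blood vessels, were taken as all cells that the study's deposited annotation calls smooth muscle and mesenchymal cells (SMMCs), and this label was held by 913 of 36129 kept cells over 5 timepoints. Of these, 548 came from muscle and 365 from passage 0. The muscle cells were released by collagenase from the semitendinosus of Belgian Blue cattle and sequenced directly after isolation, without sorting. The passage 0 cells were the unsorted cells of the same animals after 72 h on fibronectin in a serum-free growth medium. The sample records of passage 0 list SCs, FAPs and unsorted cells, where the methods name unsorted cells. Unique molecular identifiers (UMIs) were summed per animal where at least 10 mural cells were found, which gave 10 animals in muscle (5 calves and 5 adults, 22 to 145 cells each) and 7 in culture (4 calves and 3 adults, 18 to 110 cells each, 347 cells in all). Animal 3 was sequenced in muscle alone, and animals 1 and 5 had 9 mural cells each at passage 0. For each timepoint the cells of all animals were pooled in equal parts and captured together (Chromium 3′ chemistry), and the donor of each cell was assigned from its genetic variants, so what culture changed and what differs between the captures cannot be told apart.

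Pericytes sit within the basement membrane of capillaries and smooth muscle cells surround arterioles and venules. Both contract through smooth muscle actin and myosin to set vessel tone, both depend on platelet-derived growth factor from the endothelium and on Notch signals through NOTCH3, and the resting pericyte is marked by the G protein regulator RGS5. Mural cells placed in culture are known for losing contractile proteins while they begin to divide and to lay down matrix.

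The authors named muscle clusters from their genes and from labels predicted with mouse muscle data, and passage 0 clusters by comparison with muscle. Counts of mural markers therefore describe the labelled cells and are no test of the label. To compare cells of unequal depth (medians of 2792 UMIs per mural cell in muscle and 12669 at passage 0), each cell was thinned to 2000 UMIs, which left 408 and 360 mural cells. Of 15 mural markers, the median mural cell held a UMI of 7 in muscle (animal medians 6.5 to 8, 10 animals) and of 4 at passage 0 (animal medians 3 to 5, 7 animals). The medians of fibro-adipogenic progenitors (FAPs, the connective tissue progenitors of muscle), vascular endothelial cells and satellite cells (the muscle stem cells) lay at 0 or 1 at both timepoints. At least 3 markers were seen in 99.3% of mural cells in muscle and 77.8% at passage 0, against at most 14.5% in any of those other types. Cells that had lost every mural marker could have gone unlabelled. A UMI of PDGFRA, PECAM1, CDH5, PTPRC, MYF5 or PAX7, which mark FAPs, endothelial, immune and satellite cells, was present in 10.3% of thinned mural cells in muscle and 11.9% at passage 0, and without thinning in 11.8% and 35.6% of the same cells. In muscle the cells also differed among themselves. RGS5 was seen in 40 of the 108 mural cells with a UMI of MYH11, the smooth muscle myosin (37.0%), while it was seen in 70.8% of all mural cells.

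Many of the genes measured in mural cells differed between muscle and passage 0. Of 3454 genes that passed the filter on low counts, 523 were higher and 734 lower at passage 0 (edgeR's quasi-likelihood test, Benjamini-Hochberg adjusted p below 0.05 and a fold change above 2, written as a log2-FC beyond ±1 and given with its SE). These are 15.1% and 21.3% of the genes tested, 36.4% in all, and the ranges of the 10 and 7 animals did not overlap for 30.5%. The median log2-FC over all genes was 0.01. In the 7 animals seen at both timepoints, 1115 of the 1257 called genes changed in the same direction in every animal. Levels below are CPM, the UMIs of a gene per 1000000 UMIs of the tested genes in an animal's summed mural cells, scaled by TMM factors. Each level is a median over animals, with the lowest and highest animal in brackets. A lower level can mean less RNA per cell, fewer cells that make it, or a smaller share of a larger total. These cannot be told apart in such sums, and the median mural cell held 2792 UMIs in muscle and 12669 at passage 0. ACTA2, for example, was lower in CPM but had 15894 UMIs in 548 muscle cells and 18948 in 347 cultured ones. Summed levels of a list and pooled ratios are per 1000000 UMIs of all genes, without TMM factors. The sums held 78426 to 504628 UMIs per animal in muscle and 192635 to 2017352 in culture, and a gene could pass the filter through 1 of the groups alone. The counts of list members below include such genes, whose direction the filter favoured. The libraries differed further in ways that were not tested as a source of these results. The median share of mitochondrial UMIs in mural cells was 3.98% in muscle and 2.49% at passage 0, and 8.11% and 39.4% of all barcodes had been set aside as doublets of different animals. The libraries shared 7 barcodes among all kept cells and 0 among mural cells.

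Most contractile genes were lower in culture. Of 31 listed genes of the smooth muscle contractile apparatus, 30 were found in the files and 25 were tested. At passage 0, 20 were lower and none was higher, against 21.3% and 15.1% of all genes, and the median log2-FC was -1.58. ACTA2, the smooth muscle actin, was the most abundant of them, with 8507 CPM (4835 to 20375) in muscle and 3434 CPM (1022 to 6075) at passage 0, log2-FC -1.55 ± 0.38, adjusted p = 0.00173. Every animal seen at both timepoints was lower in culture, although the ranges overlapped. MYH11, the smooth muscle myosin heavy chain, showed the largest fall of the list, from 1016 CPM (248 to 2871) to 35.4 CPM (19.3 to 92.4), and the groups did not overlap (log2-FC -4.94 ± 0.48, adjusted p = 1.2e-07). Phospholamban, PLN, which restrains the calcium pump of the sarcoplasmic reticulum, went from 667 CPM (401 to 1095) to 26.6 CPM (5.78 to 42.9), and again no animal of one group reached the other (log2-FC -4.48 ± 0.23). PDLIM3, an actinin-binding protein, changed by a log2-FC of -4.19 ± 0.21, with 14.5 to 23.1 CPM left in culture.

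Other partners of actin had smaller log2-FCs than MYH11. TAGLN (transgelin, an actin cross-linker) had 1126 CPM (901 to 1669.9) in muscle and 188 CPM (58.0 to 375) at passage 0, log2-FC -2.54 ± 0.27, and MYL9, the regulatory myosin light chain, 2718 CPM (1134 to 4349) and 445 CPM (179 to 559), log2-FC -2.70 ± 0.30. Both pairs of ranges were apart. CNN1 (calponin) had 844 CPM (218 to 3339.8) in muscle and 328 CPM (191 to 474) in culture, so the ranges overlapped, and it was lower in all 7 animals seen at both timepoints (log2-FC -2.04 ± 0.48, adjusted p = 0.00128). DES, the intermediate filament protein desmin, had the same overlap (log2-FC -2.02 ± 0.61, adjusted p = 0.00761). It was not called when only animals with at least 30 cells were used (log2-FC -1.975, adjusted p = 0.051). TPM2, a tropomyosin, lay close to the fold threshold (log2-FC -1.08 ± 0.22, adjusted p = 4.2e-04) and under it with no filter on low counts (-0.84), in cells without markers of other types (-0.96) and without animal 9 (-0.92). The light chain MYL6 (log2-FC -1.10 ± 0.12) and vinculin, VCL (log2-FC -1.03 ± 0.14), an actin anchor, were also under it with no filter, with at least 30 cells per animal and without animal 9 (-0.86, -0.97 and -0.998 for MYL6, and -0.79, -0.95 and -0.94 for VCL), and VCL without animal 2 or 3 (-0.95 and -0.99). CALD1, TPM1, ACTN1, TLN1 and HSPB6 were not called, and TPM1, another tropomyosin, stood at 3304 and 2308 CPM (log2-FC -0.60 ± 0.23). The summed level of the list went from 26253 to 75775 CPM in muscle down to 12317 to 24506 CPM, so even the lowest muscle animal exceeded the highest cultured one. ACTA2, ACTG2 and other actins share long stretches of sequence, and reads could be split between them.

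**Figure D1:**
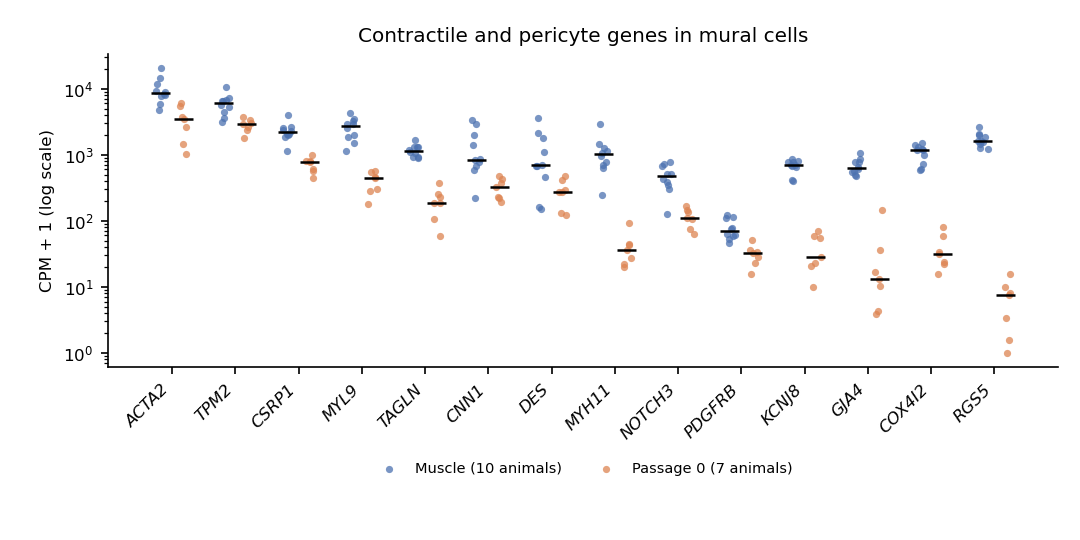
CPM + 1 on a log axis for 14 contractile and pericyte genes in mural cells, 1 point per animal (10 in muscle, 7 at passage 0), with black bars for medians. ACTA2 and TPM2 kept medians of 3434 and 2962 CPM in culture, while RGS5 went from a median of 1610.5 to 6.63 CPM.

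Most pericyte genes were lower as well. Of 25 listed, 20 were tested, 16 were lower and 1, CD248, was higher, against 21.3% and 15.1% of all genes, with a median log2-FC of -2.23. RGS5, a regulator of G protein signalling, was present at 1610.5 CPM (1216 to 2612) in muscle and at 6.63 CPM (0 to 14.7) at passage 0, log2-FC -8.23 ± 0.35, adjusted p = 3.4e-13, and 25 RGS5 UMIs were counted in all cultured mural cells tested against 2994 in muscle. COX4I2, a cytochrome oxidase subunit of oxygen-sensing cells, went from 1179 CPM (577 to 1517) to 30.2 CPM (14.7 to 80.9), log2-FC -5.00 ± 0.31. KCNJ8 and ABCC9, which together form the ATP-sensitive potassium channel of pericytes, were both lower, KCNJ8 from 705 CPM (402 to 867.9) to 27.1 CPM (8.85 to 70.1). The gap junction gene GJA4 fell from 624 CPM (481 to 1053) to 12.1 CPM (2.95 to 144), log2-FC -4.96 ± 0.49, and the highest cultured value was that of animal 9, which had the fewest cells of the 7. None of these 4 pairs of ranges overlapped.

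The receptors of the list changed less than RGS5. PDGFRB, the receptor for the endothelial signal that recruits pericytes, had 69.1 CPM (45.05 to 121) in muscle and 31.6 CPM (14.7 to 49.7) at passage 0, log2-FC -1.45 ± 0.23, adjusted p = 3.8e-06, with overlapping ranges. CSPG4, FOXS1 and GJC1 did not pass the fold threshold (log2-FC -0.87, -0.83 and -0.76), although CSPG4 passed it without animal 4 (-1.09) and in cells without markers of other types (-1.05), and FOXS1 without animal 7 (-1.06) and with the animal as a replicate block (-1.01). CD248 (endosialin) rose by a log2-FC of 1.02 ± 0.23 and lost the call in cells without markers of other types (0.96), with thinned sums (0.59) and without animal 1, 2, 3, 4 or 9 (0.98, 0.95, 0.97, 0.89 and 0.99). The summed pericyte list, 7226 to 10990.2 CPM in muscle, came to 955 to 1779 CPM in culture.

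The share of mural cells in which a marker could be seen was compared within the 7 animals at 2000 UMIs per cell. RGS5 detection went from 69.4% ± 6.79 (SD, n = 7) to 0.401% ± 1.06, and was lower in 7 of 7 animals (exact two-sided sign-flip test, p = 0.0156, the smallest that 7 animals can give, adjusted over 5 genes 0.0260). NOTCH3 went from 41.4% ± 19.5 (SD, n = 7) to 14.4% ± 8.01 and MYH11 from 26.8% ± 5.78 (SD, n = 7) to 6.73% ± 3.90, each lower in 7 of 7 animals with the same exact p and adjusted p. PDGFRB went from 16.1% ± 5.99 (SD, n = 7) to 7.41% ± 3.78 and was lower in 6 of 7 (exact adjusted p = 0.0391). PDGFRB varied with the draw of UMIs, and its mean share over all possible draws was 13.8% in muscle and 4.89% at passage 0, with the same exact adjusted p. At 1000 UMIs per cell its difference was -6.68 percentage points and missed the threshold (exact adjusted p = 0.0781). CNN1 was detected in 35.4% ± 8.05 and 25.7% ± 9.11 of cells, which did not pass the test (lower in 6 of 7, exact adjusted p = 0.0625). In FAPs, endothelial and satellite cells the shares of the 5 genes lay between 0% and 2.74% at passage 0, the latter for NOTCH3 in FAPs. In muscle they reached 13.0% for NOTCH3 in satellite cells and 3.604% for PDGFRB in FAPs. RGS5 was seen in 0 of 5655 cultured FAPs and in 2.65% of endothelial cells of muscle. With cells counted as independent, 0 of 5655 allows a share of thinned cells with a UMI of up to 0.0531%. That limit covers counting error only and no spread between animals. Without thinning the deeper cultured cells showed UMIs of more genes, and the differences for CNN1, NOTCH3 and PDGFRB had the opposite sign (25.7, 0.0255 and 6.65 percentage points higher in culture). These unthinned shares go against the CPM of the same cells, which are relative to all UMIs while the unthinned shares are not.

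**Figure D2:**
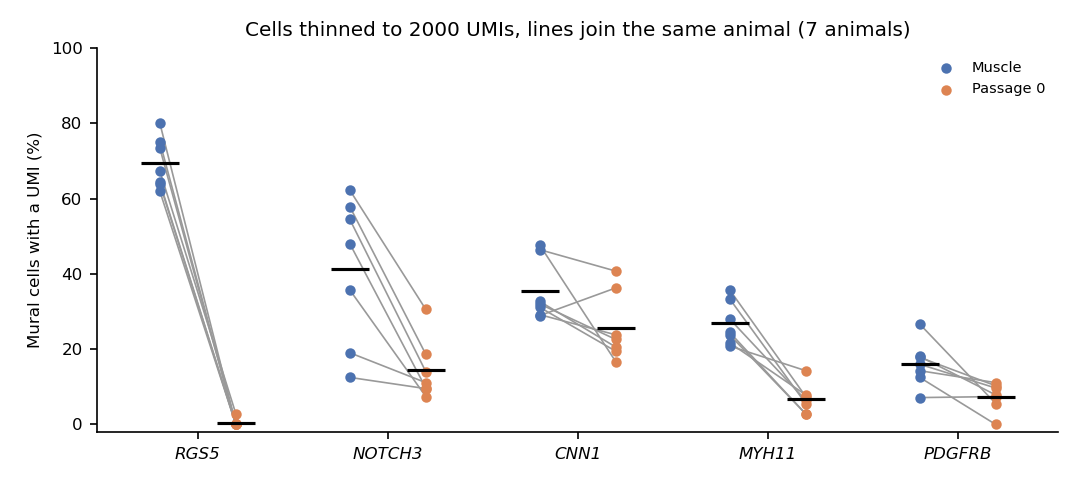
Percent of mural cells with at least 1 UMI of each gene after thinning every cell to 2000 UMIs, per animal and timepoint, with lines joining the same animal and black bars for the means of 7 animals. The RGS5 lines all end at or near 0%, while CNN1 means were 35.4% and 25.7%.

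Among the other label markers, TPM2 was seen in 92.9% of thinned mural cells in muscle and 92.8% at passage 0, and ACTA2 in 97.1% and 72.8%. PPP1R14A, an inhibitor of myosin phosphatase, was seen in 92.6% and 54.2%, and TAGLN in 76.0% and 20%. These shares are over all cells of a timepoint and were not tested. In culture ACTA2 still set mural cells apart, at a mean of 3037 CPM against 68.4 CPM in satellite cells, 41.2 CPM in FAPs and 19.3 CPM in endothelial cells of the same library.

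Genes through which vessels sense vasoactive signals were mostly lower. Of 26 listed, 11 were tested and 9 were lower, with none higher, against 21.3% and 15.1% of all genes (median log2-FC -1.54). AGTR1, the angiotensin II receptor, fell from 458 CPM (159 to 591) to 13.6 CPM (5.90 to 23.1), log2-FC -4.88 ± 0.29, adjusted p = 4.1e-12. Its ranges were apart. GUCY1A1 and GUCY1B1, the subunits of the nitric oxide receptor, changed by log2-FCs of -3.71 and -1.74. EDNRA, the endothelin receptor, was not called, with 499.6 CPM (293 to 691) in muscle and 645 CPM (245 to 1039.8) at passage 0, log2-FC 0.17 ± 0.26, and was higher in 4 of 7 animals.

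All 5 tested members of the Notch list were lower, against 21.3% of all genes, and the other 12 of 17 were not tested for low counts. NOTCH3, the Notch receptor of mural cells, went from 468 CPM (126 to 787) to 110.3 CPM (63.0 to 169), log2-FC -2.11 ± 0.29, adjusted p = 3.3e-06. Its ligand JAG1 (log2-FC -2.23 ± 0.22) and the target genes HES1 (log2-FC -3.41 ± 0.19) and HEYL (log2-FC -2.20 ± 0.27) fell as well, and HES1 showed 278 to 749.7 CPM in muscle against 23.6 to 63.9 in culture. With no filter on low counts, 12 of the 17 were lower and 1 was higher, where 2163 of all 14379 genes were lower and 2053 higher. Members tested only there include DLL1 and NRARP, each with 5 UMIs in muscle and 0 in culture. In the 4-type fit described below, the median change of 14 members was -2.06 in mural cells, -1.79 in FAPs, -1.53 in endothelial cells and -3.02 in satellite cells. Among 10 tested transcription factors of mural and mesenchymal cells 5 were lower, against 21.3% of all genes. The 5 included TBX2 (log2-FC -2.49 ± 0.25) and NR2F2 (log2-FC -1.87 ± 0.15), both known from vessel development. SRF, the factor that drives contractile genes with its partner myocardin, was not called, at medians of 64.9 and 42.2 CPM (log2-FC -0.47 ± 0.21), and myocardin itself (MYOCD) was not tested.

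Of 19 tested growth factor genes 9 were lower and 1 higher, against 21.3% and 15.1% of all genes (median log2-FC -0.58). IGFBP7, a binding protein for insulin-like growth factors, was the most abundant in muscle, with 5704 CPM (4217 to 6404) in muscle and 541 CPM (416 to 669) in culture, log2-FC -3.37 ± 0.12, adjusted p = 1.3e-17, and no animal lay between the groups. IGF2 fell from 559.9 CPM (84.1 to 1239) to 19.9 CPM (7.25 to 46.2), log2-FC -5.05 ± 0.51, and TGFB3, a transforming growth factor, had overlapping ranges (log2-FC -3.49 ± 0.56). FGF7, a growth factor for epithelia, was the one that rose, from 50.3 CPM (0 to 151) to 251 CPM (133 to 281), log2-FC 1.88 ± 0.32, adjusted p = 3.2e-05. VEGFA and ANGPT2, 2 ligands of endothelial receptors, were not called (log2-FC -0.58 ± 0.25 and log2-FC 0.07 ± 0.20). ANGPT1, of the same list, was not tested, with 77 of 1950899 UMIs in muscle and 33 of 5506836 in culture.

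In the list of interstitial matrix, 6 of 24 tested members were higher and 6 lower, against 15.1% and 21.3% of all genes tested, with a median log2-FC of 0.10. MGP (matrix Gla protein, an inhibitor of calcification) had 2842 CPM (1086 to 5634) in muscle and 15.8 CPM (2.95 to 144) at passage 0, log2-FC -6.72 ± 0.70, adjusted p = 3.5e-07. In the 4-type fit described below, MGP stood at 16483 CPM in FAPs of muscle and 2609.8 CPM in mural cells, while the FAP gene DCN stood at 19860.2 and 165 CPM. The small leucine-rich proteoglycans ASPN (log2-FC -5.71 ± 0.30) and OGN (log2-FC -4.86 ± 0.28) fell, and DCN (decorin), of the same family, rose from 129 CPM (41.9 to 1066) to 666 CPM (462 to 1049), log2-FC 1.77 ± 0.51, adjusted p = 0.00571. The highest muscle value of DCN, in animal 5, exceeded all cultured values, the rise was 2.61 without that animal (adjusted p = 8.3e-08), it was 2.31 in mural cells without a UMI of another type's marker, and it was not called with at least 30 cells per animal (log2-FC 1.57, adjusted p = 0.0752).

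VCAN (versican, a large proteoglycan of provisional matrix) rose from 9.65 CPM (0 to 45.05) to 295 CPM (242 to 388) with the groups apart (log2-FC 3.77 ± 0.26, adjusted p = 7.4e-12). Periostin, POSTN, rose from 45.5 CPM (7.45 to 172) to 153 CPM (116 to 344), log2-FC 1.65 ± 0.34. The fibrillar collagens COL1A1, COL1A2 and COL3A1 were not called (log2-FC 0.82 ± 0.31, log2-FC -0.70 ± 0.16 and log2-FC -0.03 ± 0.26, with COL1A1 called at 1.04 without a filter on low counts), nor was fibronectin, FN1 (log2-FC 0.09 ± 0.23). LTBP4, which holds latent transforming growth factor in the matrix, was in no matrix list but among the 10 genes of largest fall. It had 127 CPM (36.0 to 179) in muscle, and 1 UMI was counted in culture against 228 in muscle, a pooled level 644-fold lower with an exact 95% counting interval from 114 to 25530.

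Of 11 basement membrane genes tested, 4 were lower and none higher, against 21.3% and 15.1% of all genes (median log2-FC -0.19). COL4A1, a chain of its main collagen, was at 2135 CPM (1225 to 2395) in muscle and 1825 CPM (1667 to 2087) in culture, log2-FC -0.06 ± 0.11, while its partner chain COL4A2 was called lower near the threshold (log2-FC -1.04 ± 0.18, adjusted p = 1.0e-05) and lost the call without animal 4, 7 or 10 (-0.99, -0.94 and -0.92) and with no filter on low counts (-0.80). LAMB2, a laminin chain of vessels and muscle, fell from 263 CPM (201 to 371) to 53.0 CPM (36.9 to 70.8), log2-FC -2.48 ± 0.17. Among 12 integrin and adhesion genes tested 7 were lower and 1 higher (median -1.24). ITGB1, the shared beta chain, fell (log2-FC -1.26 ± 0.10), as did the laminin receptor chain ITGA7 (log2-FC -1.95 ± 0.20), while ITGA5, the fibronectin receptor chain, rose from 95.2 CPM (28.9 to 168) to 312 CPM (254 to 392), log2-FC 1.80 ± 0.24. The ranges of all 3 were apart.

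Of 18 tested cytoskeleton genes and YAP targets 4 rose and 4 fell, near the 15.1% and 21.3% of all genes (median -0.16). VIM (vimentin) rose from 4009.7 CPM (3177 to 6067) to 10084 CPM (9410.1 to 11082), log2-FC 1.26 ± 0.11 and the non-muscle tropomyosin TPM3 from 168 CPM (67.1 to 251) to 623 CPM (560.3 to 739), log2-FC 2.10 ± 0.16. CCN1 and CCN2, matricellular targets of YAP, fell (log2-FC -2.59 ± 0.27 and log2-FC -1.90 ± 0.50), and CCN2 spread from 1162 to 7893 CPM in muscle.

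MT2A and MT1A were among the 10 genes of largest rise. MT2A, a metallothionein that binds zinc and copper, went from 22.5 CPM (5.39 to 179) to 9372 CPM (4812 to 12495), log2-FC 7.95 ± 0.44, adjusted p = 1.4e-10, which made it one of the most abundant transcripts of cultured mural cells. MT1A had 3 UMIs in all muscle mural cells and 6024 in culture, a ratio of 711 (exact 95% counting interval 243 to 3450), with 1445 CPM (454 to 1860.1) per animal. The metallothioneins are close paralogs and reads could be split between them. In the list of redox, metal and serine genes 8 of 11 tested were higher and 1 lower, against 15.1% and 21.3% of all genes, with a median log2-FC of 2.12. Members such as MT1A and PHGDH passed the filter on low counts through passage 0 alone, so this count is no result of its own. FTL (ferritin light chain, iron storage) rose from 342 CPM (216 to 529) to 4118 CPM (3099 to 5667), log2-FC 3.56 ± 0.15, TXN (thioredoxin) from 611 CPM (429.7 to 758) to 2759.8 CPM (2076 to 3322), log2-FC 2.12 ± 0.10, and PHGDH, the first enzyme of serine synthesis, by 3.75 ± 0.27. SOD2, the mitochondrial superoxide dismutase, was outside the list and rose from 43.4 CPM (20.9 to 71.5) to 860.3 CPM (600.2 to 1525), log2-FC 4.41 ± 0.19, adjusted p = 5.8e-16. No animal of one group reached the other for any of these genes.

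Of 10 tested members of the chemokine and inflammation list, 5 were higher and 3 lower, CXCL12, CCL2 and the cytokine IL34, against 15.1% and 21.3% of all genes (median 0.81). CXCL5, IL6 and PTX3 passed the filter on low counts through passage 0, where they are high. The count of higher members is therefore no result of its own. CXCL5, which attracts neutrophils, had 8 UMIs in muscle mural cells and rose to 2247 CPM (698 to 4176), log2-FC 8.91 ± 0.51, adjusted p = 1.3e-10. IL6 had 2 UMIs in muscle and 688 in culture, a ratio of 122 (exact 95% counting interval 33.6 to 1008), with 152 CPM (85.2 to 205). PTX3, a soluble pattern receptor, rose to 802 CPM (324 to 1504), log2-FC 6.47 ± 0.49, and CSF1, the growth factor of macrophages, from 18.9 CPM (8.52 to 49.2) to 191 CPM (129.6 to 364), log2-FC 2.69 ± 0.28. CXCL12, which guides circulating progenitors, fell from 273 CPM (48.1 to 623) to 16.6 CPM (5.78 to 79.6), log2-FC -3.95 ± 0.51. CCL2, a monocyte attractant, spread from 219.9 to 6031 CPM in muscle (log2-FC -2.07 ± 0.58, adjusted p = 0.00451) and was not called with the animal as a replicate block (adjusted p = 0.0963).

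Other genes with the largest rises were the transglutaminase TGM3 at 1112 CPM (537 to 2600.3), log2-FC 8.58 ± 0.62, the decoy receptor TNFRSF6B at 1099.8 CPM (836 to 1490.4), log2-FC 6.22 ± 0.29, the fatty acid carrier FABP3 at 365 CPM (228 to 518), log2-FC 6.79 ± 0.31 and the interleukin-18 inhibitor IL18BP at 225 CPM (71.0 to 1011), log2-FC 6.71 ± 0.94. Their muscle medians were 0, 14.2, 0 and 1.17 CPM, and all 7 animals seen at both timepoints were higher in culture for each. The interferon-induced ISG12(B) had 1 UMI in muscle and 1201 in culture (ratio 426, exact 95% counting interval 76.2 to 16820). CCL14, a chemokine of vessels, was among the largest falls (log2-FC -7.51 ± 0.81). The antigen presentation and interferon list had 2 higher and 3 lower of 6 tested, against 15.1% and 21.3% of all genes. It had 1 lower of 7 under the replicate block and 1 lower of 6 without animal 5. CD74, the invariant chain of MHC class II, had 232 UMIs in muscle and 1 in culture, while the class I gene BOLA, with 659 CPM (228 to 1697) in muscle, had a log2-FC of -1.27. That call was lost in 10 alternatives, among them those without animal 2, 4, 5, 6 or 10 (-1.31, -0.99, -1.15, -1.07 and -1.06), and the value was 0.10 in cells without markers of other types.

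**Figure D3:**
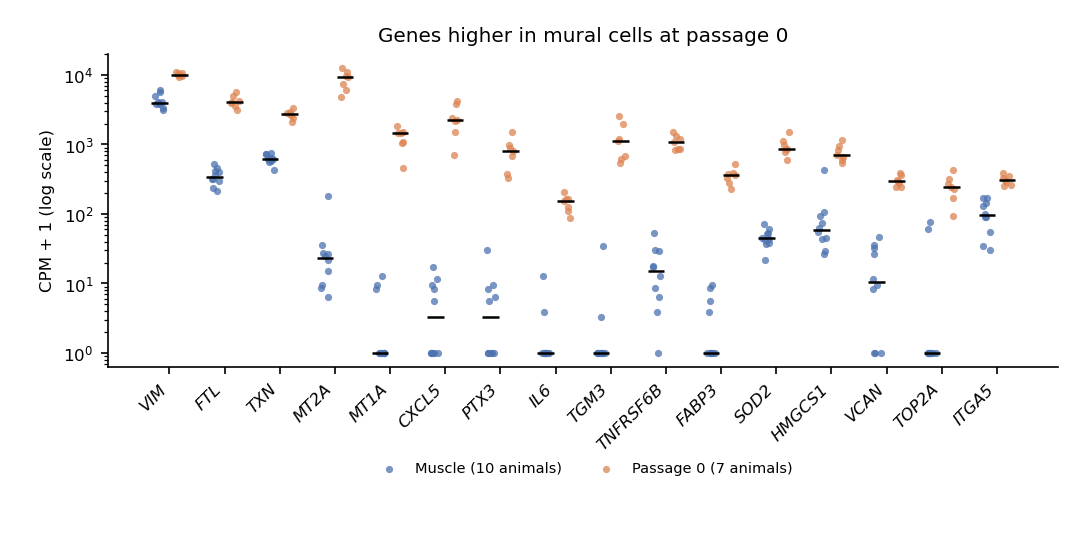
CPM + 1 on a log axis for 16 genes higher in mural cells at passage 0, 1 point per animal (10 in muscle, 7 at passage 0), with black bars for medians. For every gene the median of cultured animals lay above that of muscle, and points at 1 are animals with no UMI.

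The immediate early genes, which dissociation of tissue is known to induce, were mostly lower in culture. Of 23 tested, 18 were lower and 1 higher, against 21.3% and 15.1% of all genes, with a median log2-FC of -4.17. The summed level of the list was 28294 to 49888 CPM in muscle against 4563 to 5840.1 CPM in culture. JUN, a subunit of the AP-1 factor and one of the most abundant transcripts of muscle mural cells, went from 6956 CPM (5129.9 to 13549) to 208 CPM (166 to 272), log2-FC -5.19 ± 0.24. FOS (log2-FC -7.79 ± 0.42), FOSB (log2-FC -8.49 ± 0.40) and NR4A1 (log2-FC -7.28 ± 0.33) fell to at most 23.1 CPM in any cultured animal. CEBPD rose (log2-FC 1.35 ± 0.31), and HSPB1, a small heat shock protein abundant in smooth muscle, fell from 7008 CPM (4765 to 10119.9) to 2582 CPM (2351 to 2739). The muscle cells were sequenced directly after collagenase and the cultured ones 72 h later, and the part of dissociation in the other differences was not tested.

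Most tested genes of cell division were higher, and 3 inhibitors of the cycle were lower. In the cell cycle list 11 of 17 tested members were higher and 3 lower, against 15.1% and 21.3% of all genes (median log2-FC 1.33). Of the 37 found in the files 20 were not tested. With the animal as a replicate block 28 were tested and 20 were higher, and without animal 9, whose sums were shallow, 23 of 31 tested were higher. Members such as BIRC5 (5 UMIs in muscle and 638 in culture) and TOP2A (22 and 1239) passed the filter through passage 0 alone, where they are high. For such members a call of higher could hardly come out otherwise. The count of 11 is therefore no result of its own, and the larger counts are no further support. The topoisomerase TOP2A was above 0 CPM in 2 of 10 muscle animals and stood at 245 CPM (92.4 to 428) in culture, log2-FC 4.22 ± 0.62. BIRC5, an inhibitor of apoptosis made in mitosis, rose to 109 CPM (63.5 to 212). The 3 that fell were the inhibitors CDKN1A, CDKN1B and CDKN1C, the last from 119.7 CPM (42.9 to 240.3) to 9.67 CPM (3.55 to 19.9), log2-FC -3.91 ± 0.34. CCND1 (cyclin D1) was not called (log2-FC -0.98 ± 0.31), but lay beyond the threshold in 7 alternatives, without animal 3, 6, 8 or 9 among them (-1.05, -1.18, -1.06 and -1.04) and with the replicate block (-1.01).

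Genes of ribosome biogenesis, sterol synthesis and glycolysis were mostly higher. In ribosome biogenesis 10 of 13 tested members were higher and none lower (median 1.33), with NCL (nucleolin) going from 399 CPM (312 to 554) to 1292 CPM (1032 to 1598). Among the 10 most abundant genes called higher, 6 encode ribosomal proteins, led by RPS12, and RPLP0 rose from 2336 CPM (1802 to 2861) to 7092 CPM (6552 to 7745), log2-FC 1.62 ± 0.08. Ribosomal proteins have many processed copies, and reads could be split with them. In sterol and fatty acid synthesis 11 of 13 were higher and none lower (median 1.31). HMGCS1, an early enzyme of cholesterol synthesis, rose from 58.3 CPM (25.3 to 423) to 696 CPM (544 to 1161), log2-FC 2.73 ± 0.42, and animal 10 had the highest muscle value. In glycolysis 8 of 14 were higher (median 1.14), with PKM, the pyruvate kinase, at 181 CPM (93.7 to 408) and 945 CPM (889 to 1107). SLC2A3, a glucose transporter, was the one that fell, from 863 CPM (261 to 1477) to 12.05 CPM (8.85 to 43.1), log2-FC -5.67 ± 0.46. Beside the 15.1% higher and 21.3% lower of all genes, 4 of 27 tested nuclear genes of oxidative phosphorylation were higher and 2 lower, and of 12 mitochondrially encoded genes 3 were lower, ATP6 from 5934 CPM (4464 to 7029) to 1946 CPM (1552 to 2247), log2-FC -1.59 ± 0.09. The protease list had 1 higher (MMP2, log2-FC 2.78 ± 0.30) and 3 lower of 12, near the same shares, with ADAMTS4 from 798 CPM (409.8 to 1314) to 51.3 CPM (9.94 to 131). Of 4 tested glucocorticoid targets FKBP5 was called higher and ERRFI1 lower (log2-FC 1.08 ± 0.37 and log2-FC -1.18 ± 0.24). FKBP5 lost the call without animal 2, 5, 7 or 10 (0.98, 0.98, 0.93 and 0.93) and with thinned sums (0.75). It also lost the call in cells without markers of other types (0.998, adjusted p = 0.0506) and with the replicate block (1.21, adjusted p = 0.0662). ERRFI1 lost it without animal 2 (-0.99) and with no filter on low counts (-0.93).

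**Figure D4:**
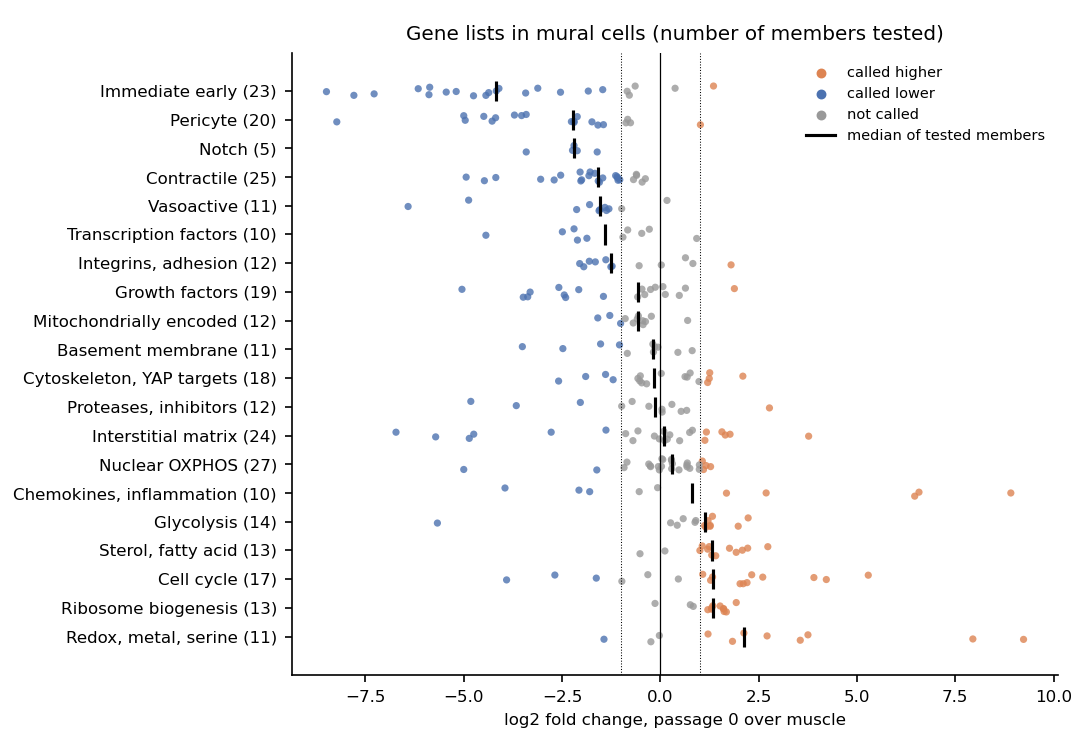
Log2 fold change of passage 0 over muscle in mural cells for every tested member of 20 gene lists, 1 point per gene, with black bars for list medians and dotted lines at the fold threshold. List medians run from -4.17 for immediate early genes to 2.12 for redox, metal and serine genes, against 0.01 over all genes.

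Markers of other cells were followed in the same sums, and their part in the results was not tested. Of 20 muscle fibre genes listed, 3 were tested and all 3 were lower (5 of 5 without animal 9), against 21.3% of all genes. ACTA1 (the skeletal actin) had 215 UMIs in muscle and 1 in culture. The 3 genes passed the filter on low counts through muscle, where they are high. A count of lower genes could hardly come out otherwise and is no result of its own. The summed fibre list lay at 383 to 1494 CPM in muscle and 10.5 to 28.5 CPM in culture, and animal 2 had the highest muscle values of ACTA1, MYLPF and TNNC2. In the other types of muscle ACTA1 stood at means of 492 CPM in FAPs, 186 in endothelial cells and 243 in satellite cells, against 100.1 in mural cells. The 10 FAP markers summed to 71.2 to 1468 CPM in muscle (median 172) and 494 to 1061 CPM in culture (median 706). DCN was the one member tested and rose, and PDGFRA and LUM went from 11 and 50 of 1950899 UMIs in muscle to 158 and 315 of 5506836 in culture. By the same counts and totals MFAP5 went from 53 to 15, SCARA5 from 28 to 8, DPT from 28 to 41 and PI16 from 5 to 1. In FAPs themselves the median log2-FC of the 10 markers was -4.66 in the 4-type fit described below. Whether RNA of FAPs adds to these counts was not tested. The 15 endothelial markers summed to 112 to 694 and 47.4 to 280.3 CPM, with EMCN (log2-FC -3.53 ± 0.23) and FLT1 (log2-FC -3.53 ± 0.36) lower. Satellite cell markers reached 183 CPM in 1 muscle animal (median 3.85) and at most 10.4 in culture, immune markers stayed at 19.2 to 53.8 and 1.58 to 10.4 CPM, and glial markers at 20.4 to 158 and 2.63 to 46.7 CPM, where S100B alone was tested and was lower. Red cell genes had a median of 0 CPM in both groups. Of the marker lists, 1 FAP, 1 endothelial, 2 satellite cell, 5 immune, 1 glial, 2 red cell and 8 fibre genes had no UMI in cultured mural cells. When only mural cells without an unthinned UMI of the 6 markers of other types were summed (497 cells of 10 animals in muscle, 218 cells of 6 animals at passage 0), 16 contractile and 17 pericyte genes were lower, against 20 and 16 with all cells. In that setting 765 of 3539 tested genes were lower, against 734 of 3454 with all cells. The cells, animals and tested genes differ between these settings, so a difference in list counts cannot be read as a loss or gain.

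Whether mural cells changed differently from their neighbours was tested in 1 fit of mural cells, FAPs, vascular endothelial cells and satellite cells at both timepoints, as the change in mural cells minus the change in the other type. All types come from the same 2 matrices, so a difference between these that is equal in all types cancels here. Passage 0 is listed as 2 runs with 1 matrix, and whether both runs are of 1 library is not given in the sources used here. Over 8617 genes, the mural change was higher than that of FAPs for 923 (10.7%) and lower for 465 (5.4%), higher than that of endothelial cells for 875 (10.2%) and lower for 690 (8.01%), and higher than that of satellite cells for 700 (8.12%) and lower for 608 (7.06%). Against all 3 types at once 94 were higher (1.09%) and 100 lower (1.16%).

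Contractile genes were the list with the most members lower against all 3 types. Of 27 members in this fit, 10 had a lower change in mural cells than in each of the 3 types and none a higher one (1.16% and 1.09% of all genes). FLNA, an actin cross-linker, changed by -1.30 ± 0.16 in mural cells but by 2.15 ± 0.15 in FAPs, 1.64 ± 0.15 in endothelial cells and 2.91 ± 0.17 in satellite cells, and its mural mean went from 1586 to 644 CPM while that of FAPs went from 92.9 to 412 CPM (difference -3.45 ± 0.22, adjusted p = 6.6e-22). TPM2 went from 4800.1 to 2551 CPM in mural cells and rose from 132 to 956 CPM in satellite cells (difference -3.76 ± 0.25, adjusted p = 6.6e-20). MYL9 changed by -2.53 ± 0.20 in mural cells, lower than in FAPs (difference -1.92 ± 0.27), endothelial cells (-2.15 ± 0.27) and satellite cells (-1.92 ± 0.28). The difference for ACTA2 was called against FAPs (-2.91 ± 0.57) and missed the threshold against endothelial cells (-0.26 ± 0.59, adjusted p = 0.809) and satellite cells (0.33 ± 0.48, adjusted p = 0.692), which held 40.6 and 212 CPM of it in muscle.

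Of 22 pericyte genes in this fit 1 was lower and 1 higher against all 3 types (1.16% and 1.09% of all genes). The median change of the 22 was -2.04 in mural cells, -2.20 in FAPs, -1.01 in endothelial cells and -1.55 in satellite cells. The change of RGS5 missed the threshold against each type (differences -1.57 ± 1.55, -2.52 ± 1.73 and -1.56 ± 2.54), where those types held at most 21.7 CPM in muscle and at most 0.542 in culture, so that their fitted changes rest on very few UMIs. The member lower against all 3 was STEAP4, a metal reductase, which fell from 61.8 to 6.90 CPM in mural cells and rose from 2.70 to 19.3 CPM in satellite cells (difference -6.84 ± 0.71, adjusted p = 1.9e-12). HEYL was the one higher, since its change was -2.04 ± 0.29 in mural cells and between -4.60 and -4.18 in the others. The immediate early list had none of 28 members called against all 3 types. In mural cells 12 had a lower change than in FAPs and none a higher one (5.4% and 10.7% of all genes). Beside endothelial cells 7 had a higher and 3 a lower change (10.2% and 8.01% of all genes), and the 3 lie near that share. Beside satellite cells 2 had a higher and 6 a lower change (8.12% and 7.06% of all genes), and the 2 lie near that share. JUN changed by -5.02 ± 0.20, -3.19 ± 0.16, -4.44 ± 0.18 and -4.71 ± 0.18 in mural cells, FAPs, endothelial cells and satellite cells. Of 37 interstitial matrix genes, 29 had a higher change in mural cells than in FAPs and none a lower one. Beside endothelial cells 6 had a higher and 3 a lower change, and beside satellite cells 5 a higher and 11 a lower one. The shares of all genes are those just given, and the 3 lie near theirs. POSTN, for example, changed by 1.81 ± 0.58 in mural cells and -4.46 ± 0.41 in FAPs.

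The genes with the largest difference against all 3 types included several secreted signals. CCL2 fell from 2052 to 548 CPM in mural cells, while it rose from 287 to 730.2 CPM in FAPs, from 13.0 to 139.5 CPM in endothelial cells and from 13.2 to 537 CPM in satellite cells. The membrane proteins TMEM51 and ITGA3 and the Kelch protein KLHL23 also fell in mural cells (-3.74 ± 0.31, -1.91 ± 0.30 and -4.30 ± 0.26), and ITGA3, a laminin receptor chain, rose in all 3 other types. BMP4, a bone morphogenetic protein, went the other way, from 21.4 to 88.3 CPM in mural cells and from 164 to 15.1 CPM in FAPs, with changes of -3.44 and -3.31 in endothelial and satellite cells (difference from FAPs 5.52 ± 0.41, adjusted p = 4.5e-18). IL18BP rose from 2.13 to 319.5 CPM in mural cells and stood at 3.05, 24.5 and 2.01 CPM in cultured FAPs, endothelial cells and satellite cells. The rise of MT2A was larger in mural cells than in all 3 types (differences 3.22 ± 0.69, 2.27 ± 0.73 and 5.21 ± 0.67), although its cultured level of 7833 CPM was below the 14385 CPM of FAPs. Of the 10 genes with the largest positive difference 4, LOXL4, TRIP13, PCK2 and RGS10, had no UMI in muscle mural cells, and against a floor of 3 UMIs over the group they were at least 1.53, 18.3, 10.9 and 5.67-fold higher at passage 0.

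**Figure D5:**
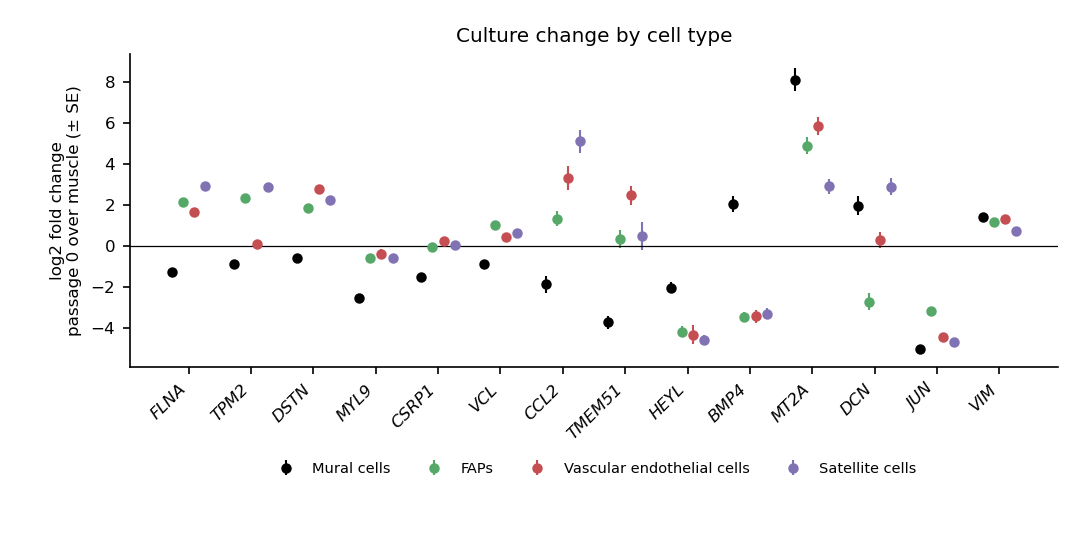
Log2 fold change of passage 0 over muscle (± SE from the 4-type fit) for 14 genes in mural cells, FAPs, vascular endothelial cells and satellite cells. FLNA, TPM2, DSTN and VCL lie below 0 in mural cells alone, BMP4 lies above 0 in mural cells alone, and JUN and VIM move the same way in all 4 types.

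The 2 animals left out at passage 0 for having 9 mural cells each are given beside the others without a test, as CPM without scaling factors. ACTA2 was 826 CPM in animal 1 and 1353 in animal 5, against 937 to 5418 in the 7 animals tested and 4335 to 17262 in muscle. RGS5 had 1 and 3 UMIs in them, MGP and FOSB none. MT2A was 5274 and 7501 CPM, and the tested animals ran from 4411 to 11228 CPM. CXCL5 was 5301 CPM in animal 1, above the highest tested animal (3724 CPM), and JUN was 525 CPM in animal 5, above the 229 CPM of the highest tested animal and far below the 4542 CPM of the lowest in muscle.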

How the data were processed

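Per the labels and methods, the authors aligned reads with Cell Ranger 6.0.1 to build ARS-UCD1.2 with Ensembl release 101, assigned donors with demuxlet, dropped barcodes of several donors, kept cells within stated quality limits and named clusters at each timepoint. The deposited matrices hold raw UMI counts of 21880 genes, 16828 with a symbol. The authors computed the deposited percent of mitochondrial UMIs per cell. No caller for doublets of 1 donor was run here, and 11 columns of the deposited cell tables were not used.

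Counts of cells labelled SMMCs were summed per animal (at least 10 cells) and compared with edgeR 4.0.16 in R 4.3.3 (filterByExpr, TMM, robust quasi-likelihood F test, no replicate block). Genes were called at a Benjamini-Hochberg adjusted p below 0.05 over all genes tested and an absolute log2-FC above 1. SEs are the absolute log2-FC over the square root of F. CPM of single genes are TMM-normalised and summed list levels are not. The difference of changes between cell types was tested in the same way, and shares of cells with an exact sign-flip test over 7 animals. Pooled ratios carry exact 95% intervals, which cover counting error only. P-values measure the spread between animals, not between cultures or captures.

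Genes were named by rule. These were the 10 largest changes in each direction, the 10 most abundant called genes in each, up to 3 called members per direction of 29 lists plus members whose role was needed, and the 10 largest differences from all 3 other types. For 2 genes the values are not reported here. Members and lists were chosen with earlier results of these data known. The same animals were sampled at both timepoints, which pairs the samples by design. The correlation of an animal's deviations from the group means was -0.04 to 0.09 over 7 pairs. On simulated counts for the 3454 genes of the main comparison, 93.3%, 90.7% and 87.7% of genes changed by a log2-FC of 1.5, 2 and 3 were called, with 0 false calls. For the difference from FAPs over 8617 genes the shares were 65.1%, 78.6% and 83.6%, with 3 false calls. In both simulations only well-counted genes were changed, and all groups were drawn from 1 pooled profile with the trended spread and no animal effect. Far fewer genes were changed than were called in the data, so false calls in the data were not measured. Alternatives used DESeq2 1.42.0, RLE factors, no filter, at least 30 cells, thinned sums, cells without other types' markers, the replicate block and each animal left out, of which animals 1, 3 and 5 were added after seeing the data.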

Additional observations from a re-analysis of the deposited data

Results flagged for a closer look

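Among 224 sets of animals (1 gene or share in 1 group), 34 held an animal far from the others by Dixon's ratio. The limits used give about 1 in 20 for normally distributed values, which CPM near 0 are not. In several sets all other animals were at 0, where 1 UMI is enough for a flag. The count of 34 is therefore no measure against chance. In all 34 the highest animal stood apart. In muscle, animal 9 had 2871 CPM of MYH11 (next 1438), 3928 of CSRP1, 613 of TGFB3 and 12.01 of IL6. Animal 5 had 1066 CPM of DCN (next 200.3), 143 of MMP2, 240.3 of CDKN1C, 22.5 of BIRC5 and 3777 of FTH1. Animal 2 had 329 CPM of ACTA1, 202 of MYLPF, 303 of TNNC2 and 1095 of PLN. Animal 10 had 423 CPM of HMGCS1 (next 105), 150.5 of FGF7 and 28.9 of PTX3. Animal 3 had 1312 CPM of ASPN and 34.1 of TGM3, animal 8 had 179 of MT2A, animal 1 had 172 of POSTN and animal 6 had 576 of PGAM1.

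At passage 0, animal 9 had 92.4 CPM of MYH11, 144 of GJA4 (next 35.5), 12934 of FTH1 and 5.78 of CD74. Animal 8 had 169 CPM of LMOD1 and 43.1 of SLC2A3, and animal 6 had 79.6 of CXCL12 and 696 of MMP2. Animal 7 had 15.98 CPM of TNNC2. Animal 4 had 0.753 CPM of ACTA1, 1.51 of MYLPF and the one RGS5 share above 0, 2.80% of cells, and animal 10 had 0.590 CPM of LTBP4, each in a set whose other animals were at 0.

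Of the 94 and 100 genes whose culture change in mural cells was higher or lower than in all 3 other types by a test of the difference itself (edgeR, interaction), the 19 named here are among the largest differences. The smallest of the 3 log2 differences was 8.80 for LOXL4 (against satellite cells), 6.25 for TRIP13, 6.10 for PCK2, 5.83 for RGS10 and 5.14 for PI15 (against FAPs), 5.36 for BMP4 (against satellite cells), and 5.19 for IL18BP, 4.37 for RASSF4, 4.35 for LPAR1 and 3.56 for SRPX2 (against endothelial cells). In the other direction it was -4.74 for STEAP4, -4.07 for TMEM51, -4.03 for MALL, -4.02 for ITGA3, -3.52 for MAP6D1, -3.24 for COL27A1 and -3.22 for CCL2 (against FAPs), and -3.56 for KLHL23 and -3.44 for OSBPL3 (against endothelial cells). LOXL4, TRIP13, PCK2 and RGS10 had 0 UMIs in muscle mural cells, RASSF4 had 2 and LPAR1 1, and MALL had 1 UMI in cultured ones, so these fitted differences depend on the prior count. The pooled ratio of LPAR1 was 5.67 with an exact 95% counting interval of 0.881 to 237.7, that of RASSF4 was 11.9 (3.16 to 100.0), and MALL was 39.5-fold lower in culture (6.01 to 1671).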

How the results depend on the processing

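Of 523 higher and 734 lower genes, the counts became 2053 and 2163 of 14379 tested with no filter on low counts, 969 and 1208 of 5575 with at least 30 cells per animal (7 and 4 animals), and 178 and 303 of 1307 with every sum thinned to 78426 UMIs. With 1 animal left out they ranged from 497 to 788 and from 683 to 1014, the highest without animal 9 (4885 tested). DESeq2, RLE factors and cells without other types' markers stayed within 1.5 times. With no filter, the median log2-FC of the genes of the main comparison shifted by 0.24. Of the 1257 called genes, 1243 were called by DESeq2 and 1250 with RLE factors. BOLA was the one called gene of opposite sign, 0.10 in cells without other types' markers.

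Pairing by animal as a replicate block gave 709 higher and 844 lower genes of 4549 tested, and of 1237 main calls tested there 1184 were called. The block ended the calls of CCL2, BOLA, FKBP5, PSMB8, ND1 and COX5A among the named genes, and 4 of 7 animals correlated best with themselves.

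The differences between cell types changed most with thinned sums (2413 genes tested), to 264 higher and 170 lower against FAPs, 186 and 204 against endothelial cells, 157 and 220 against satellite cells, and 14 and 42 against all 3. The block, DESeq2 and no filter kept them within 1.5 times. Shares of cells changed most without thinning. The difference was -3.10 percentage points for MYH11 (exact sign-flip, adjusted p = 0.391), 25.7 for CNN1, 0.0255 for NOTCH3 and 6.65 for PDGFRB, and at 1000 UMIs it was -6.68 for PDGFRB (adjusted p = 0.0781). The mean share over all possible draws of 2000 UMIs, an alternative chosen after seeing the data, changed no call of the 5 genes. Fewer genes, animals or UMIs entered the stricter settings by construction, and other causes were not tested. Depth limits the low genes, since the shallowest muscle sum held 78426 UMIs.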
